A study of Homo sapiens with 12 samples.

Results

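The genes described here are 10 neighbours on chromosome band 11q13, in genome order CCND1, ORAOV1, FGF19, FGF4, FGF3, ANO1, FADD, PPFIA1, CTTN and SHANK2, out of 56609 gene symbols measured. They were found by symbol in the count tables of all 12 libraries. FGF19 and ANO1 were picked because they are much higher in A4573-R than in its parent, and the other 8 because they lie beside them. The values of A4573-R against A4573 parental are therefore given as a description, with no test for any of the 10. The libraries are bulk RNA-seq from A4573 and TC-71, 2 cell lines of Ewing sarcoma, a tumour of bone and soft tissue in young people in which the EWS-FLI1 fusion acts as the oncogene, and from a derivative of each line that is resistant to YK-4-279. That compound was designed to keep EWS-FLI1 from its partner RNA helicase A. The 4 groups, with 3 libraries each, are A4573-R, labelled as treated with YK-4-279 at 650 uM, A4573 parental in the solvent DMSO, TC-71-R, labelled with YK-4-279 at 400 uM, and TC-71 parental in DMSO. The unit of these doses is printed as labelled. Resistance and exposure to YK-4-279 go together in both derivatives and cannot be told apart, and the labels name 1 resistant derivative of each line. DNA copy number was not analysed here.

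Band 11q13 is a place where DNA is often gained in carcinomas, and a gain of a stretch of DNA usually raises the mRNA of many expressed genes inside it together. The region holds 3 genes for secreted fibroblast growth factors. FGF19 is a hormone of the gut that acts through the receptor FGFR4 with the co-receptor beta-klotho and lowers bile acid synthesis in the liver, while FGF4 and FGF3 act on nearby cells in the embryo. ANO1 encodes a chloride channel opened by calcium. CCND1 encodes cyclin D1, which drives cells through G1 with its kinases and is highly expressed in Ewing sarcoma. ORAOV1, named LTO1 in newer annotation, encodes an adaptor in the making of iron-sulfur proteins. FADD is the adaptor that links death receptors to caspase-8. PPFIA1 encodes liprin-alpha-1, a scaffold of cell adhesion and movement, CTTN encodes cortactin, which stabilises branched actin, and SHANK2 encodes a scaffold of the postsynaptic density. The question is whether the high FGF19 and ANO1 of A4573-R are shared by the genes between and beside them.

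On GRCh38 with GENCODE release 29, the span from the first base of CCND1 to the last of SHANK2 is chromosome 11, 69641087 to 71252577, or 1.61 Mb (megabases). FGF19 lies at 69698232 to 69704642 on the minus strand and ANO1 at 70078302 to 70189528 on the plus strand, with 374 kb between their starts. FGF4 (69771016 to 69775403) and FGF3 (69809969 to 69819024), both on the minus strand, lie between them. CCND1 (69641087 to 69654474, plus strand) and ORAOV1 (69653076 to 69675416, minus strand) lie before FGF19 and overlap by 1399 bases, so without strand information reads from the shared stretch could not be assigned to either. FADD (70203163 to 70207390) starts 13.6 kb after the end of ANO1, followed by PPFIA1 (70270700 to 70385312) and CTTN (70398404 to 70436584), all on the plus strand, and by SHANK2 (70467856 to 71252577) on the minus strand. Of the 35 symbols placed in the span, none but members passed the filter for testing, which asked for at least 1 CPM in at least 3 libraries. CPM are counts per 1000000 reads on the library size the authors used. Of the 10 genes, 7 passed that filter. FGF4, FGF3 and SHANK2 did not, FGF19 passed through A4573-R alone, and ANO1 through A4573-R and TC-71-R.

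Promoter sequence was at hand in RefSeq (GRCh38.p14) for 5 of the 10 genes, LTO1, FGF3, ANO1, FADD and PPFIA1. The windows of ANO1 and of FADD are shown because these are adjacent genes of opposite behaviour in A4573-R. Each is the 250 bases before the RefSeq start, on the plus strand, chr11:69985657-69985906 for ANO1 and chr11:70203046-70203295 for FADD. Capitals mark GGGCGG or its reverse complement, a GC box.
ANO1: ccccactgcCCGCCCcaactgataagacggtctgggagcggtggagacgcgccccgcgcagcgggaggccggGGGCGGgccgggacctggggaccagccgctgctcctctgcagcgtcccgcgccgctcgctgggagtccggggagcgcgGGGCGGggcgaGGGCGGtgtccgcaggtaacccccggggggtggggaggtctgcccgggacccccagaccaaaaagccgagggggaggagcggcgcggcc
FADD: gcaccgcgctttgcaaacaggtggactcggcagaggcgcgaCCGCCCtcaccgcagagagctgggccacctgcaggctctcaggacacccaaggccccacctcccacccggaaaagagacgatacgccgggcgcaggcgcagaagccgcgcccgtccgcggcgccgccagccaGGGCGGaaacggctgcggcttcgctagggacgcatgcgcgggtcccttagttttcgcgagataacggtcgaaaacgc
The ANO1 window held 4 GC boxes and 78% G and C, and the FADD window held 2 and 68.8%. Of 35116 RefSeq promoter windows of the same length, 42.6% held at least 1 GC box, as did all 5 of these. None of the 5 windows held GGAAGGAA, TGATGNAA, TGACGTCA, TGANTCA or TATAAA on either strand, which 3.06%, 3.14%, 1.65%, 6.57% and 10.7% of all windows held. RefSeq starts ANO1 92.4 kb before GENCODE release 29 does, so the printed window lies far upstream of the gene as it was placed here. The noncoding entry AP003555.3, at 69985876 to 70015815, covers that RefSeq start and had 0 reads over the 12 libraries together.

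Named genes held 43983425 to 62129570 reads per library, and the lowest Pearson r between 2 libraries of the same group, taken over log2(CPM + 1), was 0.9974. The labels leave unsaid whether a group's 3 libraries come from separate cultures. The p-values therefore measure the spread among these libraries, which may be technical. Of 8 Ewing sarcoma markers, 7 were above 1 CPM in every library, while CD99 was listed at 0 to 0.0145 CPM. Of 11 markers of blood, endothelium, epithelium and muscle, the highest value in any library was 1.62 CPM. In such bulk libraries, fewer cells that express a gene and less RNA per cell cannot be told apart.

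FGF19 and ANO1, the 2 genes on which the choice rests, were nearly silent in A4573 parental and clearly expressed in A4573-R. FGF19 was at 19.2, 18.8 and 18.8 CPM in the 3 A4573-R libraries, against 0.345, 0.140 and 0.361 CPM in A4573 parental. That is 4287 reads over the A4573-R libraries and 68 over the A4573 parental libraries. The ratio of mean CPM was 67.1, and the log2 fold change on CPM + 1 was 3.96 (SE 0.0647). ANO1 was at 9.62, 9.90 and 10.0 CPM in A4573-R, against 0.0797, 0.0349 and 0.0241 CPM in A4573 parental. The reads behind these values were 2232 in A4573-R and 11 in A4573 parental. Its ratio of mean CPM was 213, and its log2 fold change was 3.37 (SE 0.0533). With so few parental reads that ratio is loose. It was 334 without A4573 parental replicate 1, which held 6 of the 11 reads, and the ratio over summed reads, 219, had an exact 95% interval of 122 to 439 for counting error only. For both genes every A4573-R library lay above every A4573 parental library, and the 3 A4573-R libraries differed little among themselves. Among all 14335 tested genes FGF19 had the 2nd and ANO1 the 5th highest log2 fold change in A4573-R.

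The 5 other members that passed the filter stood the other way round in the same libraries. CCND1 was at 359, 327 and 360 CPM in A4573-R, against 628, 624 and 648 CPM in A4573 parental. This is a log2 fold change of −0.86 (SE 0.0398), or 1.82 times as much CCND1 in the parent. ORAOV1, which ends 22.8 kb before FGF19, was at 13.2, 14.3 and 13.3 CPM in A4573-R, against 24.1, 23.8 and 24.0 CPM in A4573 parental (log2 fold change −0.77, SE 0.0456). Both genes on the centromeric side of FGF19 were thus lower in all 3 A4573-R libraries than in any parental one.

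On the far side of ANO1 the same direction held with smaller differences. FADD was at 12.7, 11.7 and 13.4 CPM in A4573-R, against 15.1, 15.8 and 15.5 CPM in A4573 parental (log2 fold change −0.28, SE 0.0552). PPFIA1 was at 71.8, 68.6 and 67.9 CPM in A4573-R, against 81.9, 80.4 and 82.2 CPM in A4573 parental (log2 fold change −0.23, SE 0.0317). CTTN was at 131, 133 and 138 CPM in A4573-R, against 212, 215 and 217 CPM in A4573 parental (log2 fold change −0.67, SE 0.0311). For none of these 5 genes did the groups overlap, as for 74.6% of all tested genes. So 2 of the members that passed the filter stood higher in A4573-R and 5 lower. Of all tested genes, 72.5% passed an adjusted p of 0.05 in this contrast. Since it chose FGF19 and ANO1, nothing is read from the members' count.

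FGF4 and FGF3, the genes that lie between FGF19 and ANO1, stayed at the edge of detection. FGF4 had 6, 5 and 6 reads in the A4573-R libraries, against 0, 0 and 1 read in A4573 parental. In CPM over the summed libraries this is 0.0750 against 0.00409, a ratio of 18.3 with an exact 95% interval of 2.87 to 766 that covers counting error only. FGF3 had 2, 1 and 2 reads in A4573-R, against 0 in each A4573 parental library. Its exact 95% interval for counting error was 0.00717 to 0.0515 CPM in A4573-R, against 0 to 0.0151 CPM in A4573 parental. These intervals overlap, so no minimum fold is given. All 3 fibroblast growth factor genes thus had more reads in A4573-R, but FGF4 reached only 17 reads and FGF3 only 5 over libraries that gave FGF19 4287. SHANK2, at the telomeric end, had 0, 1 and 1 read in A4573-R and 0 in each A4573 parental library. In both groups this is under a floor of 3 reads over the group.

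**Figure D1:**
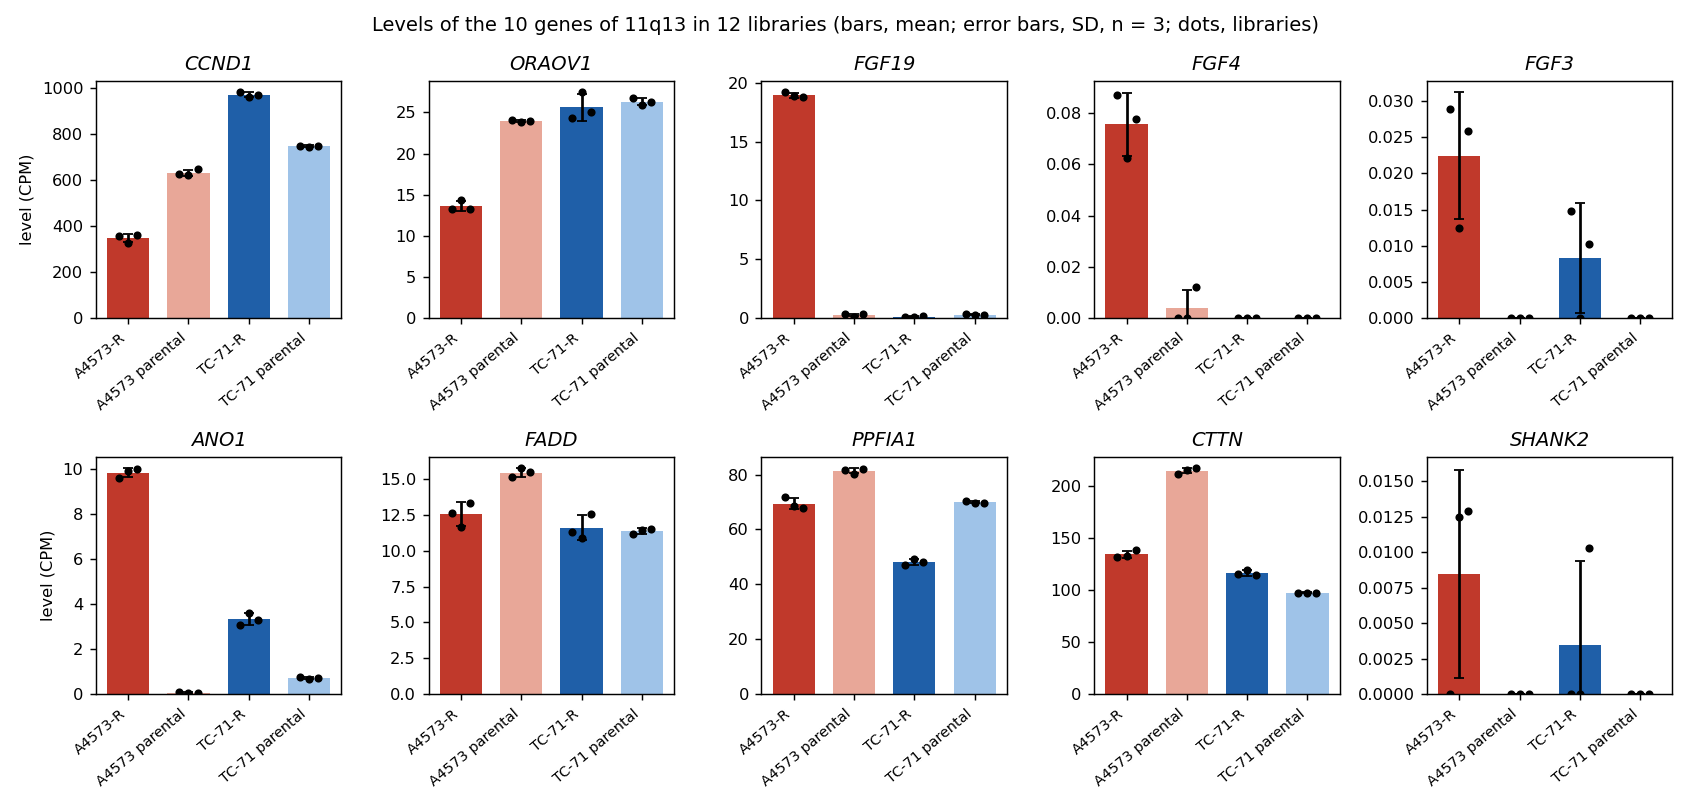
Level of each of the 10 genes in CPM (vertical axes, linear, one scale per gene) in A4573-R, A4573 parental, TC-71-R and TC-71 parental. Bars are means, error bars SD with n = 3, and dots libraries. FGF19 stands out in A4573-R alone, ANO1 is high in A4573-R and intermediate in TC-71-R, and CCND1, ORAOV1 and CTTN are lower in A4573-R than in its parent. The bars of FGF4, FGF3 and SHANK2 rest on at most 6 reads per library.

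The second resistant line was not used to choose the genes and allows a test. In TC-71-R, ANO1 rose and FGF19 fell. ANO1 was at 3.08, 3.62 and 3.28 CPM in TC-71-R, against 0.763, 0.688 and 0.710 CPM in TC-71 parental. Every TC-71-R library lay above every parental one, by a ratio of means of 4.62, and by limma the log2 fold change was 1.33 (SE 0.0533, adjusted p = 4e-12). With a pseudocount of 0.25 the log2 fold change was 1.88, and on whole reads by edgeR it was 2.21 (adjusted p = 1.4e-11). FGF19 fell to 0.133, 0.105 and 0.155 CPM in TC-71-R, against 0.370, 0.314 and 0.244 CPM in TC-71 parental. All of these values rest on few reads, 32 over the TC-71-R libraries and 79 over the TC-71 parental ones. The log2 fold change on CPM + 1 was −0.21 (SE 0.0647, limma adjusted p = 0.0078), which for so low a gene is closer to 0 than the ratio of means of 0.423. By edgeR on reads, which called 79.0% of all tested genes, it was −1.20 (adjusted p = 0.0025). The 2 genes that are high together in A4573-R thus moved in opposite directions in TC-71-R.

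Among the neighbours, CCND1 and CTTN rose in TC-71-R and PPFIA1 fell. CCND1 was at 982, 961 and 971 CPM in TC-71-R, against 751, 743 and 749 CPM in TC-71 parental (log2 fold change 0.38, SE 0.0398, limma adjusted p = 3.5e-07). CTTN was at 116, 119 and 114 CPM in TC-71-R, against 97.1, 96.5 and 97.4 CPM in TC-71 parental (log2 fold change 0.26, SE 0.0311, limma adjusted p = 1.6e-06). Both genes stood below the parent in A4573-R. PPFIA1, which lies between FADD and CTTN, was at 47.1, 49.2 and 48.0 CPM in TC-71-R, against 70.4, 69.8 and 69.7 CPM in TC-71 parental (log2 fold change −0.53, SE 0.0317, limma adjusted p = 4.1e-10). It is the one neighbour among the tested members that stood lower in both derivatives without overlap.

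FADD and ORAOV1 did not pass the test in TC-71-R. FADD was at 11.3, 10.9 and 12.6 CPM in TC-71-R, against 11.2, 11.5 and 11.6 CPM in TC-71 parental (log2 fold change 0.02, SE 0.0552, limma adjusted p = 0.73). ORAOV1 was at 24.3, 27.4 and 25.0 CPM in TC-71-R, against 26.7, 25.9 and 26.3 CPM in TC-71 parental (log2 fold change −0.04, SE 0.0456, limma adjusted p = 0.44). For both the groups overlapped, while for 81.1% of all tested genes they did not. In all, 3 of the 7 tested members rose and 2 fell in TC-71-R, where 78.5% of all tested genes passed, so the number of calls is near the background and only the sizes and directions tell the genes apart. FGF4 had no read in any TC-71 library, which over the summed TC-71-R libraries allows up to 0.0125 CPM. FGF3 had 2 reads over the TC-71-R libraries and SHANK2 had 1, against 0 for both in TC-71 parental, all under the floor of 3 reads.

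The levels of the members differ widely even before any change. Per kilobase of exon, CCND1 was the most abundant in every group, at 72.2 ± 3.87 CPM per kb in A4573-R, 131 ± 2.63 in A4573 parental, 201 ± 2.22 in TC-71-R and 155 ± 0.868 in TC-71 parental (SD, n = 3). CTTN came next in every group, with 19.3 ± 0.540 CPM per kb in A4573-R and 30.8 ± 0.364 in A4573 parental. In A4573-R, FGF19 reached 7.74 ± 0.0885 CPM per kb, the third highest level per kilobase of the 10 genes there, above FADD (6.83 ± 0.454), PPFIA1 (5.93 ± 0.179) and ORAOV1 (1.73 ± 0.0770). That order depends on the length used, the union of all annotated exons, which is 2447 bases for FGF19, 11704 for PPFIA1 and 7872 for ORAOV1. In CPM without length, FGF19 at 18.9 stood below PPFIA1 at 69.4 and above ORAOV1 at 13.6 and FADD at 12.6. ANO1 came to 1.63 ± 0.0338 CPM per kb in A4573-R, which overlaps in spread with ORAOV1. In A4573 parental both stood at the bottom of the tested members, with 0.115 ± 0.0505 CPM per kb for FGF19 and 0.00768 ± 0.00490 for ANO1.

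Ordered by group, CCND1 ran from TC-71-R, the highest, through TC-71 parental and A4573 parental to A4573-R, with no overlap between any neighbouring groups. ANO1 ran from A4573-R through TC-71-R and TC-71 parental to A4573 parental, also with no overlap. CTTN was highest in A4573 parental, then A4573-R, TC-71-R and TC-71 parental, again without overlap. FGF19 was highest in A4573-R, and its 3 other groups overlapped as neighbours. FADD was highest in A4573 parental, and the next 3 groups overlapped as neighbours. PPFIA1 was highest in A4573 parental and lowest in TC-71-R, and its 2 middle groups, TC-71 parental and A4573-R, overlapped. ORAOV1 was lowest in A4573-R, and its 2 TC-71 groups overlapped.

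The parental lines already differed at these genes. By limma, 5 of the 5 tested members other than FGF19 and ANO1 differed between TC-71 parental and A4573 parental, where 89.9% of all tested genes did, and for none of the 5 did the groups overlap, as for 92.5% of all tested genes. Of the 5, 2 were higher and 3 lower in TC-71 parental, against 45.9% higher and 44.1% lower among all tested genes. CTTN was the furthest apart, with a mean of 97.0 ± 0.454 CPM in TC-71 parental against 214 ± 2.53 CPM in A4573 parental (SD, n = 3 each; log2 fold change −1.14, SE 0.0311, adjusted p = 9.1e-15). FADD (−0.41, adjusted p = 3.7e-06) and PPFIA1 (−0.22, adjusted p = 9.2e-06) were lower in TC-71 parental too. CCND1 was higher in TC-71 parental, at 747 ± 4.19 CPM, than in A4573 parental, at 633 ± 12.7 CPM (log2 fold change 0.24, limma adjusted p = 3.6e-05). ORAOV1 was higher by little (0.13, adjusted p = 0.014), and under TMM or median-of-ratios scaling that call was lost (adjusted p = 0.063 and 0.056). This comparison shares the A4573 parental libraries with that of A4573-R, and FGF19 and ANO1 were chosen partly on them, so they get no test here. FGF19 averaged 0.309 ± 0.0630 CPM in TC-71 parental against 0.282 ± 0.124 CPM in A4573 parental. ANO1 averaged 0.720 ± 0.0386 CPM in TC-71 parental against 0.0462 ± 0.0295 CPM in A4573 parental.

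**Figure D2:**
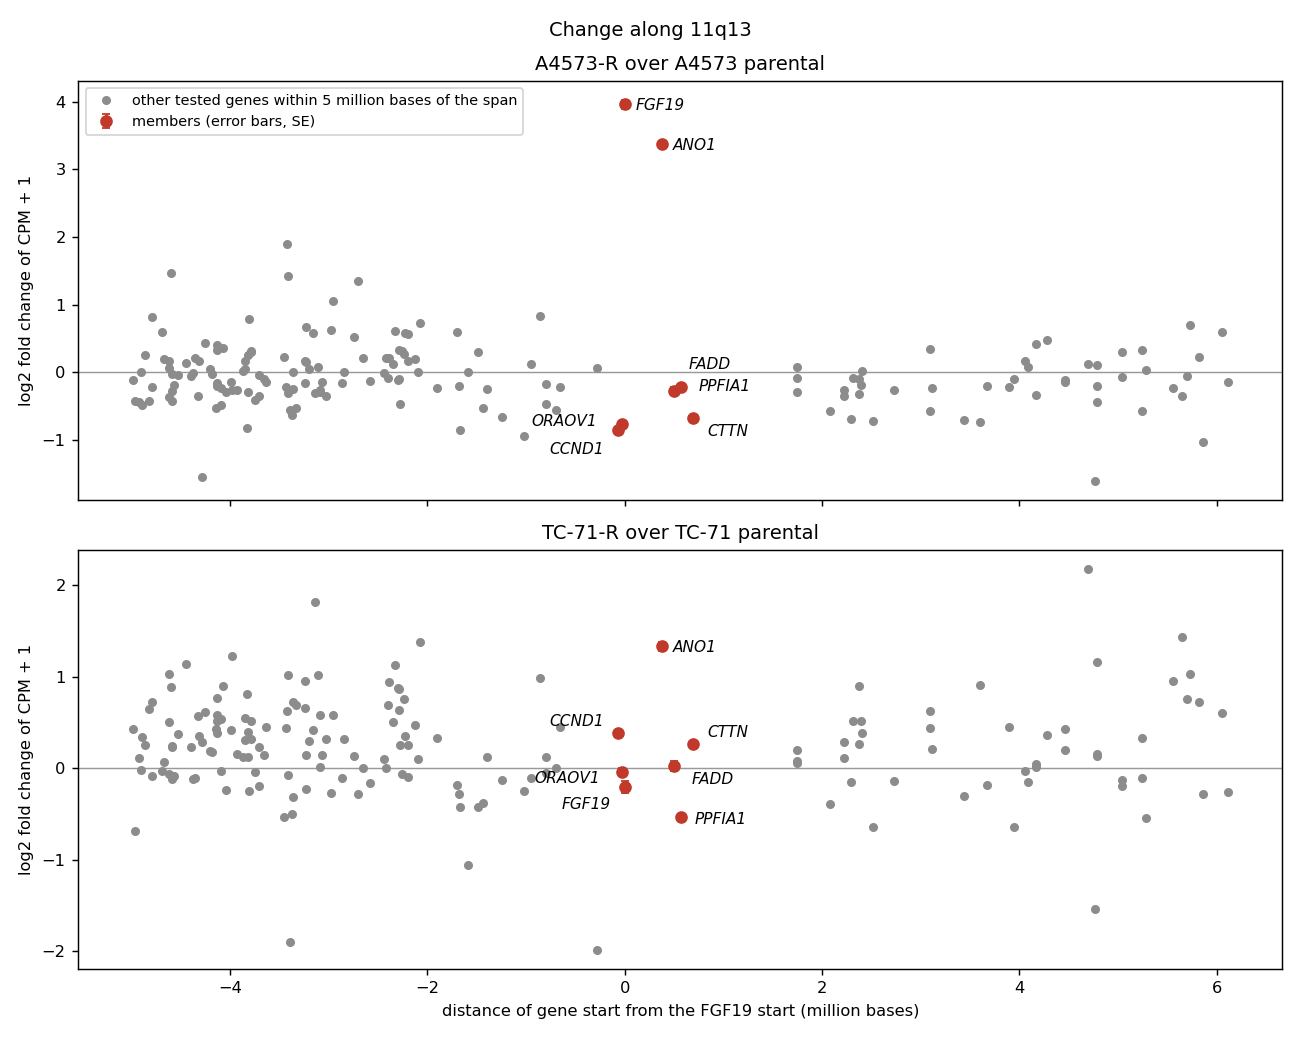
Log2 fold change of CPM + 1 (vertical axis) of each tested gene within 5 Mb of the span, by the distance of its start from that of FGF19 in Mb (horizontal axis), for A4573-R over A4573 parental (upper panel) and TC-71-R over TC-71 parental (lower panel). Red points are members with SE as error bars, and grey points other genes. In the upper panel FGF19 at 3.96 and ANO1 at 3.37 stand alone above neighbours at or under 1.90, and in the lower panel ANO1 at 1.33 is the highest member.

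No tested gene within 5 Mb outside the span had a log2 fold change in A4573-R above 1.90, against 3.96 for FGF19 and 3.37 for ANO1. The nearest tested genes on the centromeric side are AP000439.3, TPCN2, which encodes a channel of endosomes and lysosomes, and MRGPRF, and on the telomeric side AP002387.1, DHCR7, which encodes the last enzyme of cholesterol synthesis, and NADSYN1, an enzyme of NAD synthesis. In A4573-R, TPCN2 fell to 15.7 ± 0.626 CPM, against 18.5 ± 0.0407 CPM in A4573 parental (log2 fold change −0.23, limma adjusted p = 0.00027). NADSYN1 fell as well (−0.30, adjusted p = 3e-05). MRGPRF passed the filter through A4573 parental alone, so its values get no test. It was at 0.641 ± 0.106 CPM in A4573-R, against 1.41 ± 0.0573 CPM in A4573 parental. DHCR7 had a log2 fold change of −0.09 (adjusted p = 0.075), and AP002387.1 had 0.08 (adjusted p = 0.27). DHCR7 was called lower under TMM scaling (adjusted p = 0.02), under median-of-ratios scaling (adjusted p = 0.047) and without A4573-R replicate 3 (−0.14, adjusted p = 0.0096). None of these 6 neighbours was called higher in A4573-R by limma. AP002387.1 overlaps DHCR7 on the other strand, and without strand information their reads cannot be told apart where they overlap.

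The noncoding RNA AP000439.3 (chromosome 11, 69425690 to 69429621), which ends 211 kb before CCND1, passed the filter through TC-71 parental alone, so its values in the TC-71 groups get no test. It was at 0.0592, 0.0656 and 0 CPM in TC-71-R, against 3.23, 3.26 and 2.88 CPM in TC-71 parental (log2 fold change −1.98, SE 0.0499). All 3 TC-71-R libraries lay far below the parental ones, while CCND1, the next gene, rose there. In the A4573 groups it had 4, 5 and 1 read in A4573-R and none in A4573 parental (limma log2 fold change 0.06, adjusted p = 0.27), which edgeR (adjusted p = 0.011) and DESeq2 (adjusted p = 0.0013) on reads called higher.

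Within 2 Mb outside the span, 35 genes were tested. In A4573-R, 5 of them were higher and 23 lower, with a median log2 fold change of −0.24, while of all tested genes 38.3% were higher and 34.1% lower, with a median of 0.02. From 2 to 5 Mb outside it, 49 of 133 genes were higher and 53 lower (median −0.02). Over the rest of chromosome 11, 138 of 610 genes were higher and 365 lower (median −0.21), so lower values in A4573-R also prevailed far from FGF19. Among the 168 genes within 5 Mb, 5 had a log2 fold change of at least 1 in A4573-R. The highest were CNIH2 (1.90), TM7SF2 (1.46) and TMEM151A (1.43), which start 3.41 to 4.59 Mb before FGF19, and the lowest were KCNE3 (−1.61), NEAT1 (−1.55) and SERPINH1 (−1.03).

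In TC-71-R the genes within 2 Mb leaned neither way, while those from 2 to 5 Mb were more often higher. Within 2 Mb, 15 of 35 genes were higher and 14 lower (median log2 fold change 0.06), against 38.8% higher and 39.6% lower among all tested genes (median −0.0033). From 2 to 5 Mb, 87 of 133 genes were higher and 24 lower (median 0.30). Over the rest of chromosome 11, 272 of 610 were higher and 209 lower (median 0.04). ANO1, at 1.33, lay above the upper quartile of 0.55 of the genes within 5 Mb, and 2.13% of all tested genes had a higher log2 fold change in TC-71-R.

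**Figure D3:**
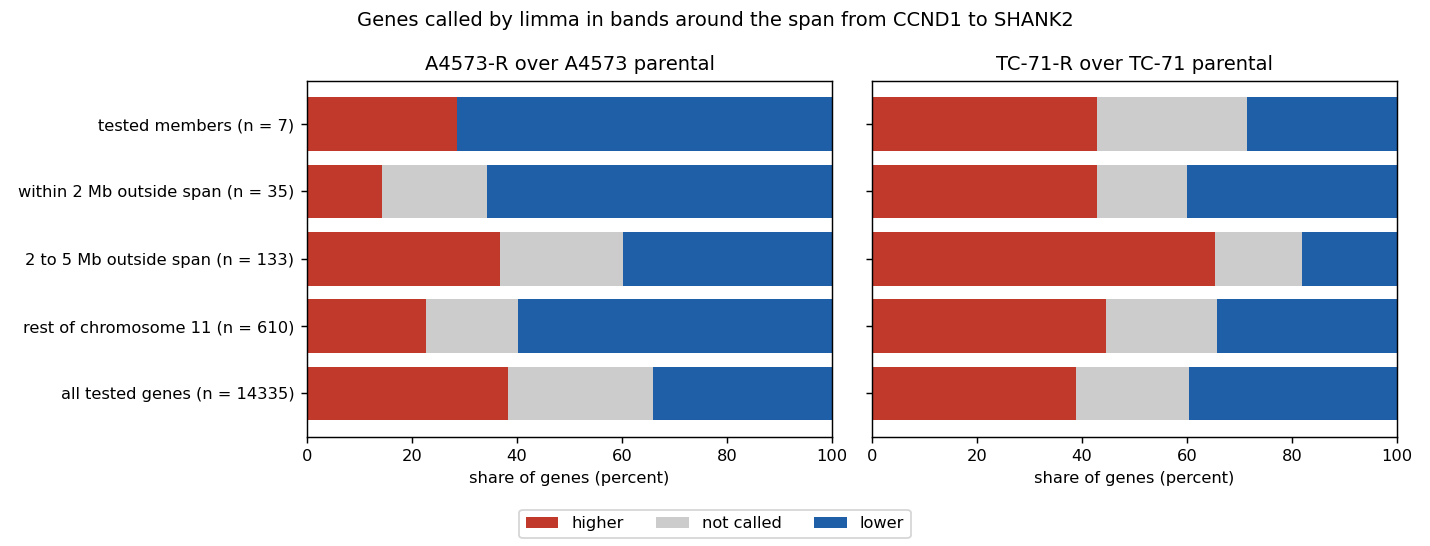
Share of tested genes called higher, not called and called lower by limma (horizontal axis, percent), for the members and for bands of distance from the span, down to all tested genes. In A4573-R (left) 23 of 35 genes within 2 Mb were lower, and in TC-71-R (right) 87 of 133 genes from 2 to 5 Mb were higher.

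Secreted FGF19 acts on cells only where its receptors are present. The list of 15 receptor, adaptor and feedback genes (FGFR1 to FGFR4, the klotho co-receptors KL and KLB, FRS2, FRS3, DUSP6, SPRY2, SPRY4, SPRED1, SPRED2, ETV4 and ETV5) had 13 tested genes. In A4573-R, 7 of them rose and 2 fell (median log2 fold change 0.23), against 38.3% higher and 34.1% lower among all tested genes. In TC-71-R 5 rose and 6 fell (median −0.08), against 38.8% higher and 39.6% lower among all. These counts include KL among the lower genes, which passed the filter through TC-71 parental alone. They also include SPRY4 among the higher ones, which passed through TC-71-R alone, so nothing is read from either call. FGFR4, the main receptor of FGF19, was at 48.0 ± 1.37 CPM in A4573-R, against 36.4 ± 0.310 CPM in A4573 parental (log2 fold change 0.39, limma adjusted p = 1.7e-06). It was at 31.2 ± 1.78 CPM in TC-71-R, against 14.5 ± 0.760 CPM in TC-71 parental (1.05, adjusted p = 1e-11). KLB, which encodes beta-klotho, did not pass the filter, with 0.106 ± 0.0176 CPM in A4573-R, against 0.228 ± 0.0397 CPM in A4573 parental, and with 0.189 ± 0.0604 CPM in TC-71-R, against 0.0315 ± 0.0255 CPM in TC-71 parental. FGFR4 and KLB were named after their values were seen, for their part in FGF19 signalling.

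The 4 genes of that list with the largest called changes were SPRY2, ETV5, FGFR3 and SPRED1. SPRY2, a feedback inhibitor of receptor signalling, rose in A4573-R (log2 fold change 0.72, limma adjusted p = 3.7e-09) and fell in TC-71-R (−1.85, adjusted p = 4.5e-14). ETV5, a transcription factor induced by that signalling, fell in A4573-R (−0.82, adjusted p = 1.6e-08) and rose to 133 ± 6.88 CPM in TC-71-R, against 47.2 ± 1.30 CPM in TC-71 parental (1.48, adjusted p = 9.4e-12). FGFR3 rose in A4573-R (0.63, adjusted p = 2.9e-07) and in TC-71-R (1.43, adjusted p = 1.2e-11). SPRED1, another feedback inhibitor, fell in both (−0.57, adjusted p = 3.4e-07, and −1.40, adjusted p = 6.2e-12).

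**Figure D4:**
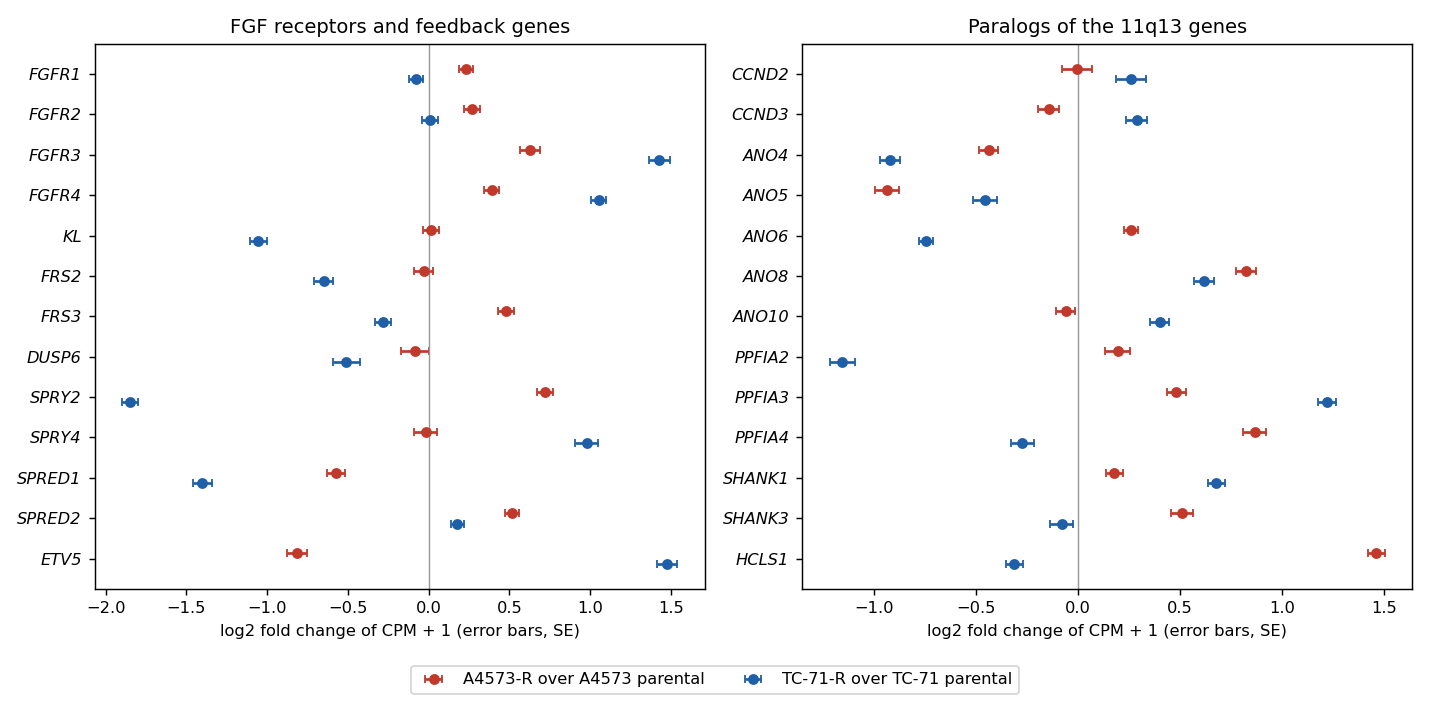
Log2 fold change of CPM + 1 (horizontal axes, error bars SE) of the tested genes of the receptor and feedback list (left) and of the paralogs of the 11q13 genes (right), in A4573-R over A4573 parental (red) and TC-71-R over TC-71 parental (blue). SPRY2 and ETV5 lie on opposite sides of 0 in the 2 lines, and HCLS1 has the largest red value among the paralogs, 1.46.

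Relatives of the 11q13 genes at other places of the genome were also followed. Of 19 paralogs, 13 were tested. In A4573-R 8 rose and 3 fell (median log2 fold change 0.20), and in TC-71-R 6 rose and 6 fell (median −0.08), so 11 and 12 of 13 were called where 72.5% and 78.5% of all tested genes were. HCLS1, the relative of cortactin found in blood cells, rose to 15.1 ± 0.327 CPM in A4573-R, against 4.84 ± 0.155 CPM in A4573 parental (1.46, limma adjusted p = 1.2e-13), while CTTN was lower there. In TC-71-R it fell to 43.1 ± 1.29 CPM, against 53.8 ± 1.84 CPM in TC-71 parental (−0.31, adjusted p = 3.6e-06). Of the liprins, PPFIA3 rose in both derivatives (0.48, adjusted p = 1.6e-07, in A4573-R and 1.22, adjusted p = 1.9e-12, in TC-71-R), and PPFIA2 rose in A4573-R (0.20, adjusted p = 0.0093) and fell in TC-71-R (−1.16, adjusted p = 1e-10). Of the anoctamins, the family of ANO1, ANO5 fell in both (−0.94, adjusted p = 1e-09, and −0.45, adjusted p = 2.8e-06). CCND2, another D-type cyclin, named after its values were seen, was at 129 ± 13.6 CPM in A4573-R, against 129 ± 1.69 CPM in A4573 parental. In the TC-71 groups it was close to silent, at 0.358 ± 0.144 CPM in TC-71-R, against 0.128 ± 0.00663 CPM in TC-71 parental.

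Likeness to FGF19 and to ANO1 was measured as Pearson's r of log2(CPM + 1) over the 12 libraries, which fall into 4 groups, so that r mostly reflects group means. The 4 genes most like FGF19 were MAF (r = 0.998), CDYL2 (0.998), SYK (0.997) and SLC7A10 (0.997). MAF was at 9.23 ± 0.407 CPM in A4573-R, against 0.0735 ± 0.00951 CPM in A4573 parental, and at 0.0137 ± 0.0131 CPM in TC-71-R, against 0.00370 ± 0.00640 CPM in TC-71 parental. MAF (79585843 to 79600714) and CDYL2 (80597906 to 80804329), both on the minus strand, lie near each other on chromosome 16. CDYL2 was at 7.47 ± 0.713 CPM in A4573-R, against 0.279 ± 0.0201 CPM in A4573 parental. Among the 4 most like ANO1 were LRRC4B (0.997), NME4 (0.990) and PCSK1N (0.989), which like ANO1 stood higher in both derivatives. LRRC4B was at 55.3 ± 2.49 CPM in A4573-R, against 16.4 ± 0.341 CPM in A4573 parental, and at 34.3 ± 1.23 CPM in TC-71-R, against 20.5 ± 0.453 CPM in TC-71 parental. None of these 7 genes lies on chromosome 11.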

How the data were processed

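RNA was extracted with an RNeasy kit and sequenced from TruSeq RNA libraries as paired ends of 100 bases, per the labels' protocols. The submitters' processing notes list the tools Trimmomatic, STAR 2.4, HTSeq and edgeR and the build GRCh38, with no settings. The deposited signal is a value per gene and library, scaled to about 1000000 reads. Dividing a column by its smallest value above 0 gave whole numbers (100% of values, within 0.001), so the values are CPM on library sizes times a factor of 0.894 to 1.06, and these whole reads served for depth and count tests. In all, 5 unnamed rows hold 30.6% to 42.0% of the deposited sum and were left out of depth and tests, though the authors' library size counts them. Rows sharing a symbol were summed, leaving 56609 symbols, of which 55128 were placed with GENCODE release 29 (317 by an older name).

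The 14335 genes that reached 1 CPM in 3 or more libraries were fitted as log2(CPM + 1) with limma 3.58.1 in R 4.3.3, 1 mean per group, with a trend on expression and Benjamini-Hochberg adjustment over all tested genes at 0.05. On whole reads, edgeR 4.0.16 (quasi-likelihood) called 10447 and DESeq2 1.42.0 called 10306 genes in A4573-R against A4573 parental, where limma called 10389. The scripts were tested on simulated counts. One read is worth 0.0103 to 0.0148 CPM. Intervals and floors cover counting error only. Exact tests of 3 against 3 libraries cannot go below 0.1, so none was used. Members and lists were chosen with earlier results of these data known. Named were the members, the 3 nearest tested genes on each side, the 3 highest and 3 lowest flanking genes in A4573-R, the 4 largest called changes of each list and the 4 genes most like FGF19 and ANO1, of which 1 is not reported here. CCND2, FGFR4 and KLB fall outside that rule. Exon lengths are those of the union of all annotated exons.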

Additional observations from a re-analysis of the deposited data

Results flagged for a closer look

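Of 35 named and tested genes, 11 lay on one side of their parent in all 3 A4573-R libraries and on the other side in all 3 TC-71-R libraries. Of all 14335 tested genes, 28.1% did so, and many of the 35 were named for large changes. For none of the 11 was the difference between the lines tested. By limma, CDYL2 (adjusted p = 0.17) and NEAT1 (adjusted p = 0.092) were not called in TC-71-R. Nor was AP000439.3 called in A4573-R (adjusted p = 0.27). They are given as log2 fold changes on CPM + 1.

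Among the 11q13 genes these were FGF19 (3.96 in A4573-R and −0.21 in TC-71-R), CCND1 (−0.86 and 0.38) and CTTN (−0.67 and 0.26). Around them, TPCN2 had −0.23 in A4573-R and 0.45 in TC-71-R, AP000439.3 had 0.06 and −1.98, and NEAT1 had −1.55 and 0.28. CDYL2, one of the genes most like FGF19, had 2.72 in A4573-R and −0.09 in TC-71-R. In the receptor and feedback list, SPRY2 had 0.72 in A4573-R and −1.85 in TC-71-R, and ETV5 had −0.82 and 1.48. Among the paralogs, HCLS1 had 1.46 in A4573-R and −0.31 in TC-71-R, and PPFIA2 had 0.20 and −1.16.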

How the results depend on the processing

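Of the values recomputed under the alternatives, 1877 kept their direction and their side of the threshold or stayed within the spread, 24 moved, 13 gained a call, 2 lost one and 3 turned sign. The 3 that turned were near 0: FGF19 in TC-71 parental against A4573 parental without A4573 parental replicate 2 (−0.049; up to 0.0792 with another replicate left out), FADD in TC-71-R without TC-71-R replicate 3 (−0.0333; up to 0.0616) and MRGPRF in TC-71-R without TC-71-R replicate 2 (−0.00408; up to 0.0174). With a mean of at least 5 CPM, 3 of the 5 members still tested were called in TC-71-R, since FGF19 and ANO1 were then not tested. Over all genes 8640 were called there under that setting, against 11248 of 14335 tested genes in the main fit. That setting tested a different set of genes, so these counts are not shares of the same total. The median log2 fold change of the genes within 5 Mb was −0.0045 in A4573-R with no filter, against −0.09 with the filter. In TC-71-R, where it was 0.23, it was 0.0069 with no filter, where more genes near 0 were fitted, 0.25 with a pseudocount of 0.25, 0.24 with a mean of at least 5 CPM, 0.26 under TMM, median-of-ratios, edgeR and DESeq2, and 0.21 to 0.25 with 1 replicate left out. The cause was not tested for any of these shifts, those with no filter included. With 1 replicate left out, 9807 to 10632 genes were called in A4573-R and 10790 to 11410 in TC-71-R.

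In A4573-R the log2 fold change of FGF19 was 5.20 with a pseudocount of 0.25 and 6.08 by edgeR, and that of ANO1 was 5.10 and 7.72, since a pseudocount of 1 pulls low genes towards 0. NEAT1 passed in TC-71-R with the replicate number as a block (adjusted p = 0.024), and without A4573-R replicate 2 (0.02) or 3 (0.044). Same-numbered libraries correlated at −0.0974 to 0.0161 in their deviations, so no pairing was visible, though this cannot show how the libraries were made. With the replicate block 5 of the 7 tested members were called in TC-71-R. Between the parental lines all 5 tested members other than FGF19 and ANO1 were called. Over all 14335 tested genes that fit called 10422 in A4573-R, 11285 in TC-71-R and 12915 between the parental lines. Members at a few reads, FGF4, FGF3 and SHANK2, are limited by depth.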
